A study of Homo sapiens with 6 samples.

Results

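Interferon-stimulated genes (ISGs) are the antiviral and immune genes that a cell switches on when interferon reaches it. They were described here in Kasumi-1, a human acute myeloid leukaemia cell line with the t(8;21) translocation, which fuses RUNX1 to RUNX1T1. The members were 41 gene symbols listed for their known induction by interferon and not by a value of these data. Earlier results of these data were known when the list was made. Each symbol was looked up in its current or older form. Of the 41, 40 had a row among the 27576 genes of the deposited table, and XAF1 was not analysed here. DDX58, now called RIGI, was found by its older name. Genes had to reach a value of 1 in 3 or more libraries to be tested. This left 38 members among 21946 genes and dropped EPSTI1 and GBP1.

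All cells were Kasumi-1 grown in RPMI1640 with 20% fetal bovine serum. The 3 control libraries came from cells given 0.5% bovine serum albumin (BSA), and the 3 IL-10 libraries from cells given recombinant human interleukin-10 at 10 ng/ml, both for 72 h. No genotype differed between the groups, and the labels name no BSA dose for the IL-10 cells. Replicates were numbered 1 to 3 in each group, and nothing in the labels says that each was its own culture. A p-value here therefore reflects how far these libraries vary among themselves, which could be technical variation alone. Values are normalised read counts (reads divided by 1 size factor per library), with 20750115 to 24222897 reads recovered per library. Since the libraries are bulk RNA, fewer cells that express a gene and less RNA per cell cannot be told apart.

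IL-10 replicate 2 stood apart from the other libraries before any gene was considered. On the first principal component, which held 75.4% of the variance, it lay at 58.96 and the other 5 libraries at -23.62 to 11.48. Kasumi-1 markers were present in every library, with summed values of 137495 to 234819 in the control and 139026 to 222191 in the IL-10 libraries over 6 markers. Of 12 liver transcripts, 11 were higher in both replicate 2 libraries than in the other 4. APOB was listed at 0 in those 4 and reached 222 in the control and 70.5 in the IL-10 library of replicate 2. The summed liver list overlapped between groups (1323 to 2035 in control, 1330 to 1694 in IL-10). SERPINA1, the exception, was high in all libraries and is part of each sum. Of 7 airway secretory genes, 5 were lower in every IL-10 library than in any control, as were 3.02% of all genes tested. The list summed to 236 to 288 in control and 135 to 147 in IL-10. No gene of it passed the threshold (smallest adjusted p 0.982 by limma). These genes were listed with earlier results of these data known, so this is a description and no test. Markers of plasmacytoid dendritic cells, a major source of interferon, were at or near 0 except IL3RA. LILRA4 was at most 3.80 and TCF4 at most 1.07, and IL3RA made up nearly all of the list's sum of 110 to 141 in control and 125 to 147 in IL-10 libraries. CLEC4C, GZMB and TCL1A were not analysed here. The part of these transcripts in the results below was not tested.

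Interferons alpha and beta bind the receptor pair IFNAR1 and IFNAR2, which activates the kinases JAK1 and TYK2. The signal leads to a complex that holds STAT2 and IRF9 and binds the interferon-stimulated response element (ISRE) in ISG promoters. Interferon gamma acts through IFNGR1 and IFNGR2 and leads to binding at the gamma-activated site (GAS). IL-10 uses JAK1 and TYK2 as well, but its receptor signals mainly through STAT3. In many cells some ISGs are also expressed at a low level without added interferon.

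The response element itself is shown first, because it was read from promoter sequence and not from the expression data. RefSeq promoter windows (GRCh38.p14, 250 bases before the start of a transcript and 50 after it) were matched for 33 of the 41 symbols, with 45 windows in all. An ISRE was searched as GAAANNGAAA or, on the other strand, TTTCNNTTTC, with overlapping matches kept. It was found in 28 of the 45 windows (62.2%), against 3.57% of 35116 windows of all genes. By gene, 23 of 33 members had an ISRE in at least 1 window. A GAS, searched as TTCNNNGAA, which reads the same on both strands, was found in 13 member windows (28.9%) and in 7.66% of all windows. Members were listed for being ISGs, so this describes the list and is no test of it. A match is a string of letters and not a measured binding site.

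The stretches below carry an ISRE (in capitals) and belong to the members of highest mean whose window held one: IFITM3 (chr11:320861-320930, minus strand), BST2 (chr19:17405711-17405780, minus), PLSCR1 (chr3:146544638-146544707, minus), PARP14 (chr3:122680769-122680838, plus), PARP9 (chr3:122564301-122564345, minus) and HERC5 (chr4:88456979-88457068, plus). IFIT1 (chr10:89392493-89392562, plus), ISG15 (chr1:1013367-1013436, plus) and EPSTI1 (chr13:42992242-42992311, minus) were added after their values were seen, to set a moderately and a barely expressed gene beside them. Each is printed 5′ to 3′ on the gene's strand.
IFITM3: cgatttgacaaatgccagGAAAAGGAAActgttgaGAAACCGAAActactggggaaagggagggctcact
BST2: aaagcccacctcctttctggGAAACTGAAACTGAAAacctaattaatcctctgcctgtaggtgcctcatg
PLSCR1: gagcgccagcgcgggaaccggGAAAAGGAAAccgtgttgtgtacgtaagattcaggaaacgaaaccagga
PARP14: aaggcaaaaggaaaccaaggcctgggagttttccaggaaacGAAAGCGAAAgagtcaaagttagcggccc
PARP9: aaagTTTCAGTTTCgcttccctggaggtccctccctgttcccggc
HERC5: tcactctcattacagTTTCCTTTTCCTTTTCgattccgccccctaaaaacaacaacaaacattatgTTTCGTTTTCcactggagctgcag
IFIT1: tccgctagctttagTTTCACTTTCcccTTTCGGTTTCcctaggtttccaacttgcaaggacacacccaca
ISG15: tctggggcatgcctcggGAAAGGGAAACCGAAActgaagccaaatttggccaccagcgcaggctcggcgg
EPSTI1: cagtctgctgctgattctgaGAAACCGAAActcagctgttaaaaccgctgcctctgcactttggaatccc
The PARP9 stretch also serves DTX3L. These genes are transcribed away from each other, with 37 bases between their starts, and the same ISRE (chr3:122564332-122564341) lay in both windows. HERC5 held 3 matches, IFITM3, BST2, IFIT1 and ISG15 held 2 each, and those of BST2, ISG15 and HERC5 overlapped in part. The string GAAACCGAAA occurred in IFITM3, the most abundant member per kilobase, in ISG15, which was moderately expressed, and in EPSTI1, which had 1 read in control replicate 1. The 10 members whose windows held no ISRE were CMPK2, HERC6, IRF1, SAMD9L, DDX58, UBE2L6, OAS1, IRF9, IFI35 and XAF1, and 8 symbols (MX2, LY6E, USP18, OASL, IRF7, IFIT2, TRIM22 and OAS2) had no window.

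Most ISGs were expressed in these cells with or without IL-10, and their levels spanned a wide range. Per kilobase of principal transcript, IFITM3 was the highest (4667, mean of 6 libraries), followed by LY6E (3813), BST2 (1774), PLSCR1 (475) and UBE2L6 (369.9). Ranked among all genes per kilobase, IFITM3 was at percentile 98.7, LY6E at 98.3 and BST2 at 95.7, and 21 of 38 members were above the median gene. The median per kilobase was 55.8 over the members tested and 42.0 over all genes. At the other end, GBP1, IFI44L, EPSTI1 and IFIT5 had means of 0.558, 0.968, 1.18 and 2.97 normalised reads. In all, 27 members had a mean of at least 50 normalised reads and 13 were below it.

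**Figure D1:**
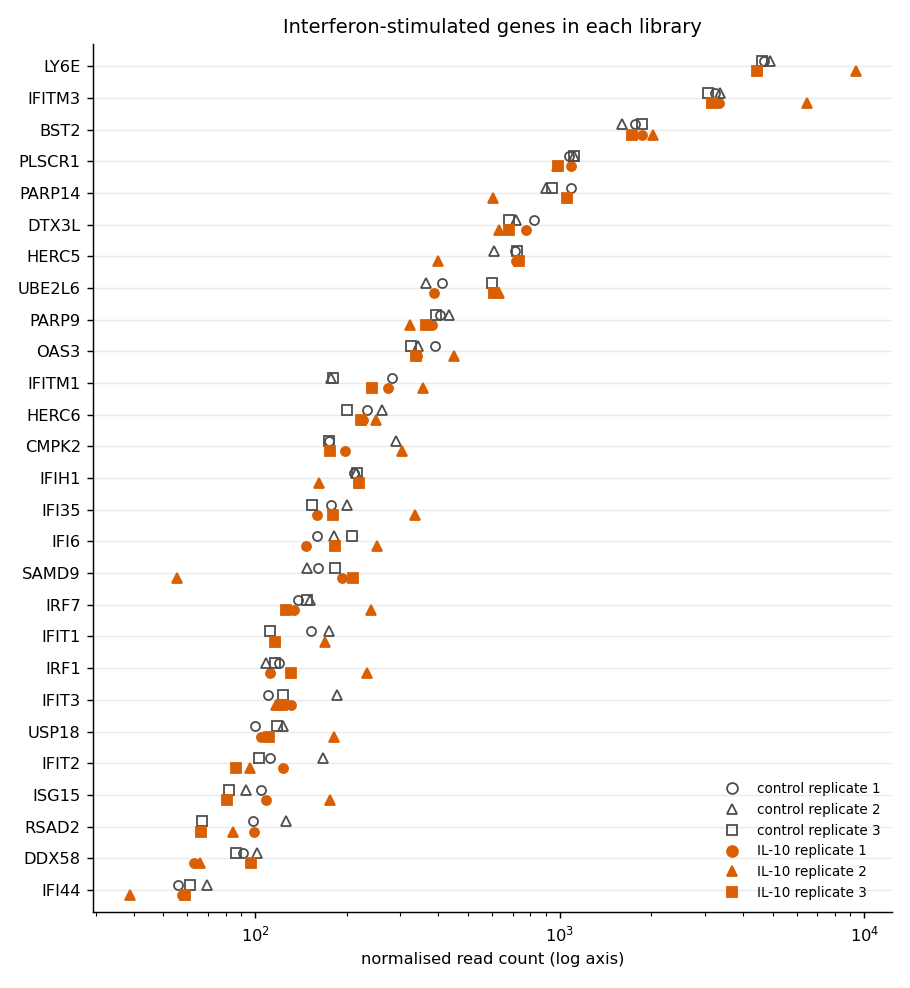
Normalised read count (horizontal log axis, not divided by gene length) of the 27 members with a mean of at least 50, 1 row per gene. Open symbols are control and filled symbols IL-10 libraries, with a shape for each replicate number. The IL-10 replicate 2 triangle lies apart from the other points in many rows, and in those of LY6E and SAMD9 the other 5 symbols lie close together.

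IL-10 for 72 h did not move any ISG past the threshold. By limma with Benjamini-Hochberg adjustment over all genes tested, 0 of 38 members had an adjusted p under 0.05 (0% of all genes did), and the smallest was 0.982. At an unadjusted p under 0.05 the count was again 0 of 38, against 1.57% of all genes. On the reads recovered from the values, edgeR and DESeq2 also called 0 members, with smallest adjusted p of 0.993 and 0.9999. Neither had a member at an unadjusted p under 0.05, where 257 (edgeR) and 94 (DESeq2) of 21946 genes were. Log2 fold changes (IL-10 against control, on the log2(value + 1) scale) were positive for 17 members and negative for 21, with a median of -0.09 against 0.02 over all genes. The median was -0.08 without IL-10 replicate 2, but 0.04 without IL-10 replicate 1 and 0.02 without control replicate 2, so its sign depends on single libraries. The precision was limited: over the 27 members with a mean of at least 50, the median 95% interval reached 0.57 to either side on the log2 scale, against 0.49 over all such genes. These intervals are not adjusted for the number of genes, so a change had to be larger still to pass the threshold. PLSCR1 (-0.45 to 0.22) and BST2 (-0.25 to 0.45) had narrower ones.

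**Figure D2:**
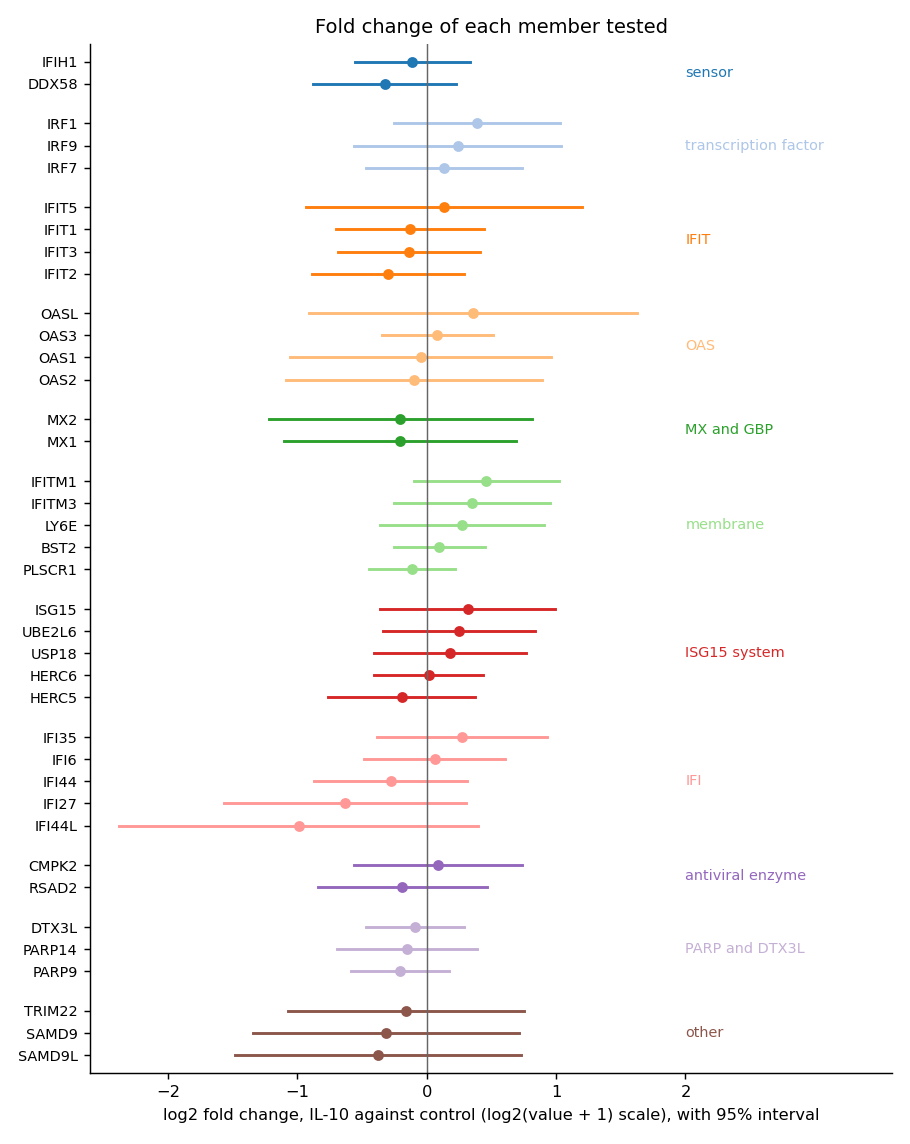
Log2 fold change of the 38 members tested (points) with 95% intervals from limma (bars), grouped by role. Every interval crosses 0, with points from IFITM1 (0.46) to IFI44L (-0.99).

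No member had all 3 IL-10 libraries above all 3 control libraries, an arrangement found in 2.85% of genes. PARP9 was the one member with all 3 below, found in 3.02% of genes.

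The sensors DDX58 and IFIH1 detect viral RNA in the cytoplasm. DDX58 had 91.3, 101 and 86.3 normalised reads in control replicates 1 to 3 and 63.1, 65.8 and 96.9 in IL-10 replicates 1 to 3. IL-10 replicates 1 and 2 were the lowest libraries, but IL-10 replicate 3 lay within the controls. The difference in pair 1 (log2 ratio -0.53) rests on 98 and 59 reads and has a counting error of 0.24. IFIH1 had 211, 215 and 216 normalised reads in control replicates 1 to 3 and 218, 162 and 219 in IL-10 replicates 1 to 3. IL-10 replicate 2 was lowest, and the other 5 libraries lay close together.

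Of the transcription factors, IRF1 and IRF7 drive interferon and ISG expression, and IRF9 is the DNA-binding partner of STAT2. IRF1 had 120.2, 108 and 117 normalised reads in control replicates 1 to 3 and 112, 233 and 131 in IL-10 replicates 1 to 3. The highest by far was IL-10 replicate 2, IL-10 replicate 3 was slightly above the controls, and IL-10 replicate 1 lay among them. IRF7 had 138, 151 and 149 normalised reads in control replicates 1 to 3 and 135, 239.8 and 126 in IL-10 replicates 1 to 3. Here too only IL-10 replicate 2 was high, and the other IL-10 libraries were below all 3 controls. IRF9 was low, at 12.9 to 27.9 in control and 18.8 to 24.7 in IL-10 libraries, and the groups overlapped. All 1789 windows of 50 bases in its principal transcript also occur in the overlapping gene AL136295.5, so its reads could have been split.

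IFIT proteins bind viral RNA and are among the strongest interferon responders in many cells. IFIT1 had 153, 175 and 112 normalised reads in control replicates 1 to 3 and 116, 169 and 116 in IL-10 replicates 1 to 3. The replicate 2 libraries were the highest of each group, and the groups overlapped. IFIT2 had 112, 167 and 103 normalised reads in control replicates 1 to 3 and 124, 96.4 and 86.4 in IL-10 replicates 1 to 3. IFIT3 had 109.9, 186 and 124 normalised reads in control replicates 1 to 3 and 131, 118 and 123 in IL-10 replicates 1 to 3. For IFIT2 and IFIT3, control replicate 2 was the highest of the 6 libraries and the others overlapped. Their log2 fold changes were -0.13 ± 0.25 (SE), -0.30 ± 0.26 and -0.14 ± 0.24 for IFIT1, IFIT2 and IFIT3. IFIT5 stayed at 1.99 to 3.56 in control and 2.14 to 3.8 in IL-10 libraries. Of the IFIT2 windows, 8.4% are shared with AL353751.1.

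The OAS enzymes make the 2-5A messenger that activates RNase L. OAS3 had 389, 343 and 325 normalised reads in control replicates 1 to 3 and 339.9, 449 and 337 in IL-10 replicates 1 to 3. The other IL-10 libraries lay within the controls and IL-10 replicate 2 was above them. OAS1, OAS2 and OASL were lower. OASL, an OAS relative that lacks the enzyme activity, was at 18.7 to 39.8 in control and 17.1 to 81.1 in IL-10 libraries, highest in IL-10 replicate 2. OAS1 ranged over 11.6 to 27.8 in control and 10.4 to 27 in IL-10 libraries, and OAS2, with a mean of 29.1, was as variable, and both overlapped between groups.

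MX1 and MX2 are GTPases that block viral replication, and GBP1 is a GTPase best known as an interferon gamma target. MX1 was at 12.9 to 18.6 in control and 7.48 to 16.5 in IL-10 libraries, and MX2 at 11.9 to 34.7 in control and 15.3 to 29.4 in IL-10 libraries. Both overlapped between groups. In pair 1, MX1 had 20 control and 7 IL-10 reads, a log2 ratio of -1.21 with a counting error of 0.63, while pairs 2 and 3 had 0.33 and 0.26. GBP1 was read only in replicate 2, with 1 control and 2 IL-10 reads.

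The membrane proteins IFITM3, LY6E, BST2 and PLSCR1 were the most abundant members, while IFITM1 was lower. IFITM3, which blocks viral entry in endosomes, had 3224, 3349 and 3066 normalised reads in control replicates 1 to 3 and 3322, 6499.7 and 3163 in IL-10 replicates 1 to 3. Above all stood IL-10 replicate 2, apart from the other 5 libraries, which lay between 3066 and 3349. LY6E, a surface protein that restricts coronavirus entry, had 4687, 4889.6 and 4610.4 normalised reads in control replicates 1 to 3 and 4432, 9392 and 4449 in IL-10 replicates 1 to 3. The same library was the high one, and IL-10 replicates 1 and 3 were below all controls. BST2, or tetherin, holds budding virions at the cell surface and had 1770.1, 1602 and 1867 normalised reads in control replicates 1 to 3 and 1863, 2022 and 1721 in IL-10 replicates 1 to 3. The groups overlapped, with IL-10 replicate 2 highest and control replicate 2 lowest.

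PLSCR1, a scramblase family member, had 1075, 1118 and 1115 normalised reads in control replicates 1 to 3 and 1089, 978 and 991 in IL-10 replicates 1 to 3. IL-10 replicates 2 and 3 were below the controls and IL-10 replicate 1 lay among them. IFITM1, a relative of IFITM3 at the plasma membrane, had 281, 177 and 181 normalised reads in control replicates 1 to 3 and 274, 356 and 241 in IL-10 replicates 1 to 3. Control replicate 1 overlapped with the IL-10 libraries and control replicates 2 and 3 were below them. IFITM1 had the highest log2 fold change among the members, 0.46 ± 0.25 (SE, 95% interval -0.10 to 1.02), and the smallest p of the members (0.0963 by limma, adjusted p 0.982). Its unadjusted p by limma was under 0.05 without control replicate 1, as for 204 of 21288 genes. The same held with the GC correction and the replicate block together, as for 980 of 21946 genes. Of its 50-base windows 42.3% also occur in other genes, 39.0% in IFITM2, as do 20.3% for IFITM3, so reads of these paralogs could have been exchanged.

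The ISG15 system attaches the ubiquitin-like protein ISG15 to other proteins: UBE2L6 is its conjugating enzyme, HERC5 its ligase and USP18 its protease. ISG15 had 104, 93.5 and 81.9 normalised reads in control replicates 1 to 3 and 109, 176 and 80.7 in IL-10 replicates 1 to 3. IL-10 replicate 2 was the highest and IL-10 replicate 3 the lowest library. USP18 had 99.7, 123 and 118 normalised reads in control replicates 1 to 3 and 105, 182 and 111 in IL-10 replicates 1 to 3. Only IL-10 replicate 2 was outside the range of the controls. Of the USP18 windows, 23.4% are shared, nearly all of them with USP41.

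UBE2L6 had 411, 364 and 598 normalised reads in control replicates 1 to 3 and 388, 634 and 611 in IL-10 replicates 1 to 3. In replicates 1 and 3 the control and IL-10 libraries were close to each other, and the level in replicate 3 was well above that in replicate 1. HERC5 had 714, 608 and 725 normalised reads in control replicates 1 to 3 and 716, 398 and 734 in IL-10 replicates 1 to 3. IL-10 replicate 2 was the lowest library, and IL-10 replicates 1 and 3 lay beside controls 1 and 3. HERC6, a relative of HERC5, had 233, 261 and 200.2 normalised reads in control replicates 1 to 3 and 226, 249 and 223 in IL-10 replicates 1 to 3. The IL-10 libraries all lay inside the range of the controls, and its log2 fold change was 0.02 ± 0.19 (SE).

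Of the genes named for interferon-inducible protein (IFI), IFI6 is a mitochondrial and endoplasmic reticulum protein and IFI35 a regulator of innate signalling. IFI6 had 159, 181 and 208 normalised reads in control replicates 1 to 3 and 147, 252 and 183 in IL-10 replicates 1 to 3. Its highest library was IL-10 replicate 2 and its lowest IL-10 replicate 1. IFI35 had 178, 199.9 and 154 normalised reads in control replicates 1 to 3 and 159, 336 and 180.5 in IL-10 replicates 1 to 3. All others were below IL-10 replicate 2. IFI44 had 55.9, 69.6 and 61.4 normalised reads in control replicates 1 to 3 and 57.7, 38.8 and 58.9 in IL-10 replicates 1 to 3. It was lowest in IL-10 replicate 2, and IL-10 replicates 1 and 3 lay within the controls. IFI27, among the ISGs most used in blood signatures of interferon, was low at 8.01 to 13.9 in control and 4.7 to 9.62 in IL-10 libraries. IFI44L was at or near 0, with at most 2 reads in any library.

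RSAD2 (viperin) makes the chain terminator ddhCTP from CTP, and CMPK2, its neighbour on chromosome 2, is a nucleotide kinase that supplies it. RSAD2 had 98.8, 126 and 66.7 normalised reads in control replicates 1 to 3 and 99.4, 84.6 and 66.5 in IL-10 replicates 1 to 3. In replicates 1 and 3 the control and IL-10 libraries were almost equal, at levels that differed between the replicates. CMPK2 had 174, 290.4 and 174 normalised reads in control replicates 1 to 3 and 197, 304 and 176 in IL-10 replicates 1 to 3. Both replicate 2 libraries were high, in control and IL-10 alike.

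PARP9 and DTX3L form a complex that modifies histones and host proteins, and PARP14 is a mono-ADP-ribosyltransferase. PARP9 had 404, 435 and 393 normalised reads in control replicates 1 to 3 and 382, 322 and 364 in IL-10 replicates 1 to 3. Every IL-10 library was below every control, but by little in pairs 1 and 3 (log2 ratios -0.08 and -0.11). Its log2 fold change was -0.21 ± 0.17 (SE, 95% interval -0.59 to 0.17, limma adjusted p 0.982). DTX3L, on the other side of the shared ISRE, had 821, 719 and 681 normalised reads in control replicates 1 to 3 and 773, 632 and 682 in IL-10 replicates 1 to 3. The lowest was IL-10 replicate 2, and the other IL-10 libraries lay within the controls. PARP14 had 1090, 899 and 944 normalised reads in control replicates 1 to 3 and 1058, 602 and 1056 in IL-10 replicates 1 to 3. Its IL-10 replicates 1 and 3 lay inside the range of the controls, and IL-10 replicate 2 was below it.

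SAMD9 and SAMD9L restrict poxviruses and are mutated in inherited bone marrow failure. SAMD9 had 161, 148 and 182 normalised reads in control replicates 1 to 3 and 193, 55.2 and 209 in IL-10 replicates 1 to 3. IL-10 replicate 2 was far below the other 5 libraries, and IL-10 replicates 1 and 3 were above all controls. SAMD9L was at 40.8 to 54 in control and 15.3 to 71.2 in IL-10 libraries, again lowest in IL-10 replicate 2. TRIM22 was at 7.45 to 11.9 in control and 5.34 to 10.6 in IL-10 libraries, and EPSTI1 at 0.89 to 0.994 in control and 0.95 to 2.14 in IL-10 libraries.

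Within pairs of the same replicate number the ISGs hardly differed in 1 and 3 and differed widely in 2. The median size of the log2 ratio of IL-10 to control over the 27 members was 0.08, 0.61 and 0.09 in pairs 1, 2 and 3, against 0.07, 0.44 and 0.06 over 11604 genes of the same minimum mean. In pair 1, 0 members were 1.5-fold higher (0.233% of all genes were) and 0 were 1.5-fold lower (0.379%). In pair 3, the counts were 0 (0.302%) and 0 (0.112%). In pair 2, 8 of 27 members were at least 1.5-fold higher (29.6%, against 21.8% of all genes): IRF1, IRF7, IFITM1, IFITM3, LY6E, ISG15, UBE2L6 and IFI35. The 6 that were at least 1.5-fold lower (22.2%, against 13.3%) were DDX58, IFIT2, IFIT3, HERC5, IFI44 and SAMD9. These counts depend on the scaling, since the deposited values summed to 27124607 in the IL-10 and 22304265 in the control library of this pair (log2 0.28). At equal totals, a setting added after seeing the data, 5 members were at least 1.5-fold higher (18.5%, against 5.45% of all genes) and 10 lower (37.0%, against 25.3%).

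The direction in pair 2 followed the base composition of the transcripts. All 8 members with over 55% GC were higher in the IL-10 library (median log2 ratio 0.77, range 0.34 to 0.96). All 13 members under 45% GC were lower (median -0.58, range -1.41 to -0.05), and of the 6 between, 5 were higher. The directions over 55% and under 45% GC were the same at equal totals. Genes at large leaned the same way at the deposited scale, with 3475 of 3620 higher over 55% GC (median 0.65). Under 45% GC 508 of 4150 genes were higher (median -0.42), and between them 2752 of 3805 were. Across the 27 members, Spearman's rho of GC and ratio was 0.82 in pair 2 (Pearson's r 0.87), and -0.13 and -0.08 in pairs 1 and 3. Across all genes it was 0.84 in pair 2. Genes are not independent replicates and each panel rests on 1 pair of libraries, so these are descriptions. After the ratios were corrected for GC, the median size over the members in pair 2 was 0.28, against 0.21 over all genes, and the median log2 fold change of the members tested was -0.04.

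**Figure D3:**
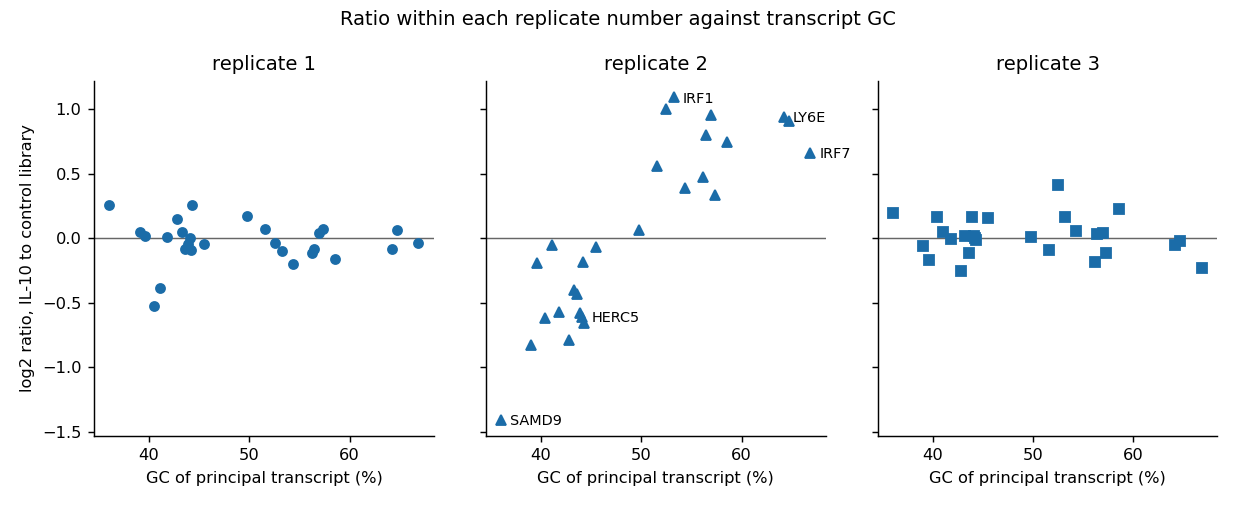
Log2 ratio of the IL-10 to the control library (vertical) against GC of the principal transcript in percent (horizontal) for the 27 members with a mean of at least 50, 1 panel per replicate number. In replicate 2 the points rise from SAMD9 (-1.41) at the lowest GC to between 0.34 and 0.96 over 55% GC. The highest point there is IRF1 (1.10), at 53.2% GC. In replicates 1 and 3 most points lie near 0.

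Apart from IL-10, several ISGs differed between replicate numbers. In control replicate 2, 4 of 27 members (14.8%) were at least 1.5-fold above the mean of control replicates 1 and 3, where 1.98% of all genes were: CMPK2 (log2 0.73), IFIT3 (0.67), IFIT2 (0.63) and RSAD2 (0.63). None was 1.5-fold below, where 5.93% of genes were. IFIT1 followed at 0.42, while UBE2L6 (-0.44) and IFITM1 (-0.35) were below. In all, 17 of 27 members were above (median 0.07), as were 6151 of 11604 genes (median 0.02). Of the less abundant members OASL was at 0.99 and OAS1 at 0.91, while IRF9 (-0.74) and MX2 (-1.29) went the other way.

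IL-10 replicate 2 compared with IL-10 replicates 1 and 3 gave, after the GC correction, 1.05 for IFIT1, 0.67 for CMPK2, 0.51 for RSAD2, 0.29 for IFIT2 and 0.18 for IFIT3. All 5 were positive on the corrected scale, as were 22 of the 27 members (median 0.25) and 61.8% of all genes (median 0.14). The values of IFIT2 and IFIT3 were thus near or below those of the members at large. In control replicate 2 the corrected difference was positive for 19 of 27 members and 61.5% of all genes. Before the correction, IFIT2 (-0.10) and IFIT3 (-0.11) were slightly below. These 5 genes were picked for the pattern, which is a description of 1 control and 1 IL-10 library. The liver transcripts were high in the same libraries, and their part in it was not tested.

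**Figure D4:**
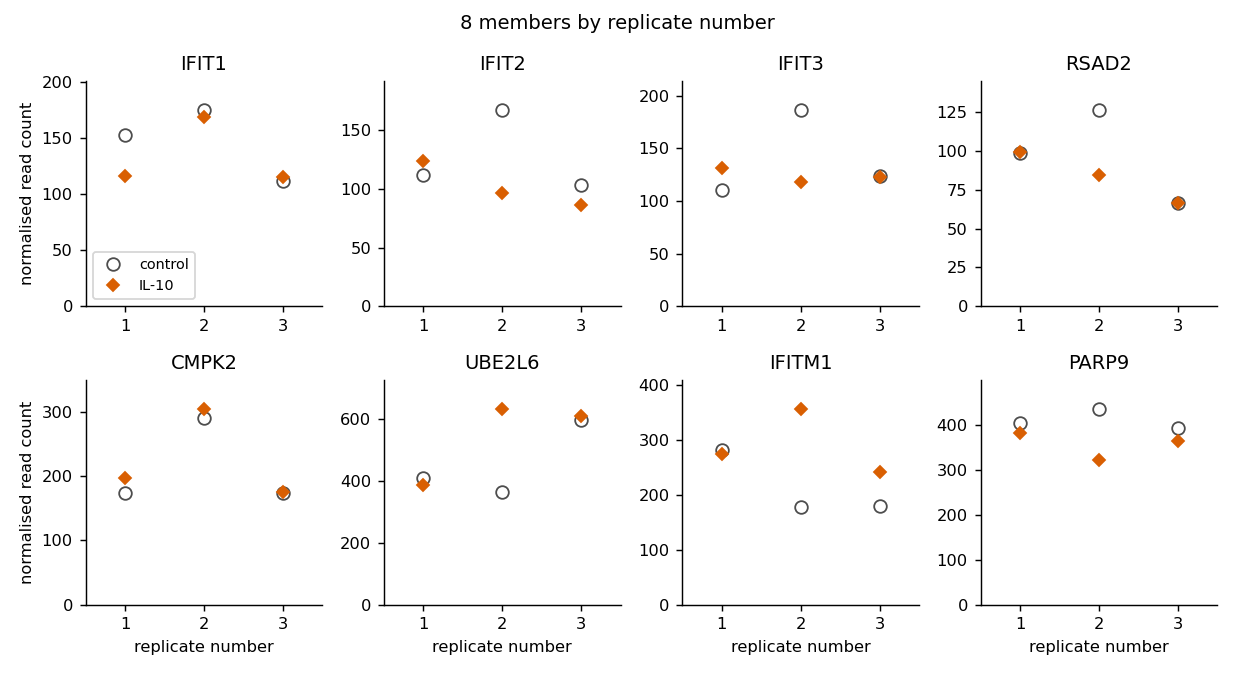
Normalised read count (vertical, from 0) of 8 members by replicate number (horizontal), with open circles for control and filled diamonds for IL-10. RSAD2 and UBE2L6 overlap between the groups in replicates 1 and 3 at levels that differ between the replicates, CMPK2 is high in both replicate 2 libraries, and every PARP9 diamond lies below the circle beside it.

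Members whose control and IL-10 library were closer to each other, in both pair 1 and pair 3, than control replicate 1 was to control replicate 3 numbered 14 of 27 (51.9%), and the share over all genes was 53.6%. The median size of the log2 ratio between control replicates 1 and 3 was 0.17 over the members and 0.12 over all genes.

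The rest of the interferon system was read from the same fit, in a list of 136 genes of which 107 had a row and 99 were tested. By limma 0 passed the threshold and 0 had an unadjusted p under 0.05, as with edgeR and DESeq2. Of the log2 fold changes 59 were positive and 40 negative (median 0.07), and 52.0% of all genes tested were positive (median 0.02). The median log2 ratio of the list was -0.02, 0.21 and -0.01 in pairs 1, 2 and 3. Of 21 ligand genes 2 had a row, and both were near 0: interferon beta, IFNB1, was at 0.89 to 1.86 in control and 0 to 2.14 in IL-10 libraries, and IFNW1 was at 0 to 2.67 in control and 0 to 4.28 in IL-10 libraries. The other ligands were not analysed here.

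All chains of the receptors for interferon alpha, beta and gamma were expressed. IFNAR1 was at 1456 to 1709 in control and 1106 to 1733 in IL-10 libraries, and IFNAR2 at 327 to 408 in control and 356 to 437 in IL-10 libraries. IFNGR1 was at 923 to 983 in control and 688 to 1029 in IL-10 libraries, and IFNGR2 at 702 to 787 in control and 733 to 848 in IL-10 libraries. The groups overlapped for each of the 4 chains, and of 5 receptor genes tested 3 had a positive and 2 a negative fold change.

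The kinases and STATs that carry the signal were abundant in both groups. JAK1 was at 1344 to 1391 in control and 1254 to 1466 in IL-10 libraries, and TYK2 at 4868 to 5567 in control and 4833 to 8407 in IL-10 libraries, highest in IL-10 replicate 2. STAT2 was at 1021 to 1284 in control and 1009.6 to 1297 in IL-10 libraries, with a log2 fold change of -0.03 ± 0.17 (SE, 95% interval -0.43 to 0.36). STAT3, the mediator of IL-10, was at 4537 to 4987 in control and 4898 to 6883 in IL-10 libraries. The groups overlapped for each of the genes named here.

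Among sensors and adaptors, MAVS, the adaptor of DDX58 and IFIH1, was at 3777 to 4093 in control and 3826 to 5297 in IL-10 libraries, and TRIM25, a ubiquitin ligase, at 2903 to 3575 in control and 2950.1 to 5015 in IL-10 libraries. Of 12 tested in this role, 9 fold changes were positive and none passed the threshold. IRF3, which starts interferon transcription, was at 1430.0 to 1529 in control and 1482 to 2238 in IL-10 libraries. IRF2BP2 and IRF2BP1, corepressors of IRF2, were at 3510.3 to 5037 in control and 3996 to 4973 in IL-10 libraries and at 1746 to 2489 in control and 1523 to 5213 in IL-10 libraries. The highest library was IL-10 replicate 2 for MAVS, TRIM25, IRF3 and IRF2BP1, and control replicate 3 for IRF2BP2.

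Of the inhibitors, SOCS1, a feedback inhibitor of the JAK kinases, was at 0.89 to 1.99 in control and 0 to 2.35 in IL-10 libraries, at most a few reads. The phosphatases PTPN11 and PTPN6 were at 10053 to 10222 in control and 8029 to 10337 in IL-10 libraries and at 2848 to 3286 in control and 3013 to 4845 in IL-10 libraries. Of 58 other ISGs tested, 36 had a positive and 22 a negative fold change, with a median of 0.07. RNF213, a large ubiquitin ligase, was at 9655 to 11331 in control and 10706 to 11173 in IL-10 libraries, and ADAR, which edits double-stranded RNA, at 6613 to 7539.7 in control and 6879 to 8417 in IL-10 libraries. Both overlapped between the groups.

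When libraries of replicate 2 were left out and the replicate number was fitted as a block, 11 of 20308 genes passed the threshold (0.0542%). Of the 37 members tested there, 0 passed (smallest adjusted p 0.999 by limma). Before adjustment 0 members had a p under 0.05 by limma, where 860 of 20308 genes did. Of the wider interferon list, 4 of 96 genes tested did: HELZ2, IRF2BP1, IRF2BP2 and SP140.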

How the data were processed

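Total RNA of Kasumi-1 cells was extracted with Trizol and sequenced from Illumina TruSeq RNA libraries, per the labels' protocols. The authors deposited 1 table of 27576 Ensembl genes by 6 libraries. The values the authors deposited are a normalised signal: each library's read counts over a size factor of its own. This was read from the numbers, of which 100% were whole multiples of 1 step per library (within 0.01 read), giving size factors of 0.851 to 1.12. Recovered depths were 20750115 to 24222897 reads. The submitters' processing notes name edgeR 3.18.1 and the builds GRCh38 and hg38, with no role. Not given in the sources used here are the aligner, the counting tool, its annotation and whether strand was used, so opposite-strand overlaps (PARP9 with DTX3L, IRF1 with C5orf56) could not be resolved.

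Gene names came from the table of gene names (26883 identifiers matched) and from GENCODE 29, which also gave transcript length and GC (27052 matched). Samples were grouped by their treatment label. Values were put on the log2(value + 1) scale and tested with limma 3.58.1 in R 4.3.3 (trended, two-sided), for genes that reached 1 in 3 or more libraries. The threshold was an adjusted p under 0.05 (Benjamini-Hochberg, over all genes). Fold changes of low genes are understated on this scale. The recovered reads were also tested with DESeq2 1.42.0 and the quasi-likelihood test of edgeR 4.0.16. The tests were tried on simulated data with the same dispersion for every gene, no GC effect and no library set apart. That setting differs from these data, so it cannot show how the tests behave on them, and no result of it is used here. Ratios within a replicate number use members with a mean of at least 50 and a fold of 1.5. GC correction subtracted a loess curve (span 0.5) on GC in each library. The curve was fitted to each gene's deviation from its mean log2 value over all libraries, IL-10 replicate 2 included. Only genes with a mean of at least 10 were used to fit it.

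To check the pairing, each library's deviation from its group mean was compared across 11605 genes. The correlation of control with IL-10 was 0.367, 0.605 and 0.726 for replicates 1, 2 and 3, all above 0.1, and the numbers were treated as pairs. Of unlike numbers, control 1 with IL-10 3 (0.208) and control 3 with IL-10 1 (0.176) were also above it. It is the values that pair them: in the labels they share a number and nothing more.

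The members and lists were chosen with earlier results of these data known. Members with a mean of at least 50 were named with each library's value, others by range. Of the wider list, the 2 of highest mean per role and genes of the pathway's core were named, of which 1 is not reported here. Alternatives were other pseudocounts, filters and scalings, no trend, sample weights, the replicate block, GC correction, count tests, pairs 1 and 3 only and leaving out each library. edgeR with the replicate block, and equal totals within pair 2, were added after seeing the data.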

Additional observations from a re-analysis of the deposited data

How the results depend on the processing

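Over 22 alternatives, no member and no gene of the wider interferon list passed the threshold, and the smallest adjusted p of a member was 0.243 by limma. Before adjustment, 5 members had a p under 0.05 by limma in some setting. IFITM1 and IFITM3 did with the GC correction and replicate block, where 980 of 21946 genes did. IFITM1 did without control replicate 1 (204 of 21288 genes). DDX58 and MX1 did with sample weights (2519 of 21946 genes), and IFI44L without the intensity trend (763 of 21946 genes). The count of all genes past the threshold was 0, and 11 when the replicate block was fitted to pairs 1 and 3 alone. With all 6 libraries the replicate block called 0 genes and 0 members, and the median log2 fold change of the members was -0.0948, as without it. That median was -0.1951 with equal totals, which moved the median of all genes from 0.02 to -0.08, and -0.0231 with sample weights. It was -0.0398 with the GC correction, alone or with the replicate block, and -0.0217 in pairs 1 and 3, blocked or not. Leaving out 1 library at a time gave -0.0934 (without control replicate 3) to 0.0367 (without IL-10 replicate 1), and 0.021 without control replicate 2. In limma, dropping the trend or the low-value filter, or fitting the block to all 6 libraries, leaves a fold change as it is. Such settings could not change a sign but are counted here. Likewise, the block left the fold changes of the GC correction and of pairs 1 and 3 unchanged. Of 827 member comparisons, 96 changed sign, in 29 members, and the share over all genes is not given here. The 9 members that kept their sign were DDX58, DTX3L, IFI27, IFI44, IFI44L and PARP9 (negative) and IFITM1, IFITM3 and ISG15 (positive). The cause of these shifts was not tested. With 3 libraries a group, and 1 of them apart from the rest, small changes would not have passed the threshold, and below 50 normalised reads counting error adds to this.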

Other observations

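Some ISGs outside the member list differed far more between replicate numbers than between treatments, and are given here after their values were seen. APOBEC3G, a cytidine deaminase that restricts retroviruses, had 624, 217 and 1397 normalised reads in control replicates 1 to 3 and 648, 247 and 1597 in IL-10 replicates 1 to 3. Its level in replicate 3 was above that in replicate 1, and that in replicate 1 above that in replicate 2, in both groups. GBP2, a guanylate-binding protein, had 18.6, 10.9 and 89.9 in the control and 21.4, 11.8 and 111 in the IL-10 libraries, in the same order. Their log2 fold changes for IL-10 were 0.14 ± 0.75 (SE) and 0.20 ± 0.90, with adjusted p of 0.989 and 0.988 by limma. This order was not particular to ISGs. VCAN, 1 of 9 monocyte and macrophage markers listed, had 133, 81.5 and 233 in the control and 144, 57.6 and 213 in the IL-10 libraries. It does not stand for that list. LYZ, another of its genes, was highest in replicate 2 in both groups (98.4 in control and 90.5 in IL-10). The share of all genes with such a pattern is not given here.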
